A study of Homo sapiens with 54 samples.

Results

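The cytokine genes IL32, LTB, TNF, CSF1, IL15 and IL18 were followed, 6 genes that code for signals by which an epithelium addresses immune cells. A probe set, the group of oligonucleotides that reports 1 transcript, was taken for a gene where the platform annotation gave it that symbol and no other. The 6 genes had 10 probe sets, of 19065 probe sets with 1 symbol that stood for 11963 genes. IL32, LTB, TNF and IL18 had 1 probe set each, IL15 had 2 and CSF1 had 4.

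The cells were HT-29, an established human line from a colon adenocarcinoma, and so stand for 1 epithelial line rather than for colon tissue. All groups, the untreated one included, had been seeded at 50000 cells per cm2 and then primed with interferon-gamma at 200 U/ml for 24 h. There were 9 treatments, and all doses are in ng/ml. Besides the untreated group, single factors were TNF (5 or 100), epidermal growth factor (EGF, 100) and insulin (500). Mixtures paired the higher dose of TNF with EGF (100) or insulin (500), and the lower dose with less EGF (1) or less insulin (5). RNA was taken after 4, 8 and 16 h from 2 biological replicates, which gave 27 groups and 54 Affymetrix arrays, and this number limits the precision of every value. No group lacked interferon-gamma, so its own effect on these genes was not measured.

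Cytokines act through matched receptors. LTB, lymphotoxin-beta, is a membrane-bound protein of the tumour necrosis factor family that anchors lymphotoxin-alpha (LTA) in a complex recognised by the receptor LTBR, while TNF is recognised by TNFRSF1A and TNFRSF1B. IL32 is an inflammatory cytokine of lymphocytes and epithelial cells with no settled receptor, and CSF1 is the growth factor of monocytes and macrophages, which carry its receptor CSF1R. IL15 sustains natural killer and memory T cells and is presented on IL15RA to cells with IL2RB and IL2RG, and IL18 is made as an inactive precursor that caspase-1 (CASP1) cuts. The TNF given to the cells was protein, so the TNF transcript measured here was made by the cells themselves.

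In the RefSeq annotation of GRCh38.p14, TNF lay on chromosome 6 from 31575565 to 31578336 and LTB from 31580558 to 31582425, next to LTA at 31560610 to 31574324. The 3 genes spanned 21816 bases. IL32 lay on chromosome 16 from 3065403 to 3069530, CSF1 on chromosome 1 from 109910506 to 109930992, IL15 on chromosome 4 from 141636583 to 141733987 and IL18 on chromosome 11 from 112143260 to 112164094. Promoters of 3 of the 6 genes were matched by symbol, in 5 windows. They are shown because they were matched, not by their response to TNF. Promoters of CSF1, also higher with TNF, and of IL15 and IL18 were not matched. The kappaB consensus was looked for since TNF receptors act through factors that bind kappaB sites. Each window holds the 250 bases before a transcription start, 5′ to 3′ on the strand of the gene, and capitals mark matches to the kappaB consensus on either strand. The windows are chr16:3065153-3065402 on the plus strand for IL32, chr6:31582426-31582675 on the minus strand for LTB and chr6:31575315-31575564 on the plus strand for TNF.
IL32: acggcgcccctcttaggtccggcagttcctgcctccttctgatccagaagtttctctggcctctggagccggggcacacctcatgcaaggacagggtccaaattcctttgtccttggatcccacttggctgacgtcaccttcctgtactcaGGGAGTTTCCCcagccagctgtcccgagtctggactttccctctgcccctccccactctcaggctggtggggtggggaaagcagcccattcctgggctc
LTB: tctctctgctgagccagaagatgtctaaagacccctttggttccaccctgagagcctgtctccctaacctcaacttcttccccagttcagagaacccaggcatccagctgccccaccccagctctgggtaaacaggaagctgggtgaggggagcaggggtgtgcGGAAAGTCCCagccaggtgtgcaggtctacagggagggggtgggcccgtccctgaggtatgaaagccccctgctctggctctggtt
TNF: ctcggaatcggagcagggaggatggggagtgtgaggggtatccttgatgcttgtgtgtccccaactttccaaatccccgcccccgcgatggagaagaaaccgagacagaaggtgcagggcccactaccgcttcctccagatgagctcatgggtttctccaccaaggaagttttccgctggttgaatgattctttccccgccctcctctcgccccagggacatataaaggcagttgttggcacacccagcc
The LTB window held 1 kappaB match, GGGACTTTCC on the opposite strand, 86 to 77 bases before the start. The IL32 window held 2 matches that overlap, GGGAGTTTCC on the gene's strand 99 to 90 bases before the start and GGGAAACTCC on the other strand 98 to 89 bases before it. The TNF window and the other IL32 window, which starts at base 3065534, held none, which says only that these letters are not in those windows. The consensus was found in 9.96% of all 35116 windows of this length. The motif TTCNNNGAA, the form bound by STAT factors, was present once in the LTB window, as TTCAGAGAA 165 to 157 bases before the start, and in 6.57% of all windows. TGANTCA, the form bound by AP-1, was in none of the 5 windows and in 6.57% of all. A match is a description of the letters and does not show binding.

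Signal here is the linear MAS5 value, which has no unit. A probe set was tested if the mean of at least 1 group reached a signal of 138.9, the median of all values, and 13422 of 22215 probe sets did. Of the 10 probe sets 7 were kept and of the 6 genes 5, and each gene is described by its brightest kept probe set. IL32, CSF1 and IL15 were above that level in all 27 groups. LTB reached it in 13 of the 18 groups with TNF and TNF in 12 of 18, and neither reached it in any of the 9 groups without TNF. LTB and TNF were therefore tested only because TNF groups were bright, and a count over the tested genes is no support for an effect of TNF on the whole set. Where no time is named, a change is the average over 4, 8 and 16 h of the log2 difference, given ± SE, with 6 arrays per treatment. Adjusted p is that of limma's F test over the 3 times after Benjamini-Hochberg adjustment over the kept probe sets. Folds are on a scale of signal plus a pseudocount of 12.5 and understate the change of dim genes.

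**Figure D1:**
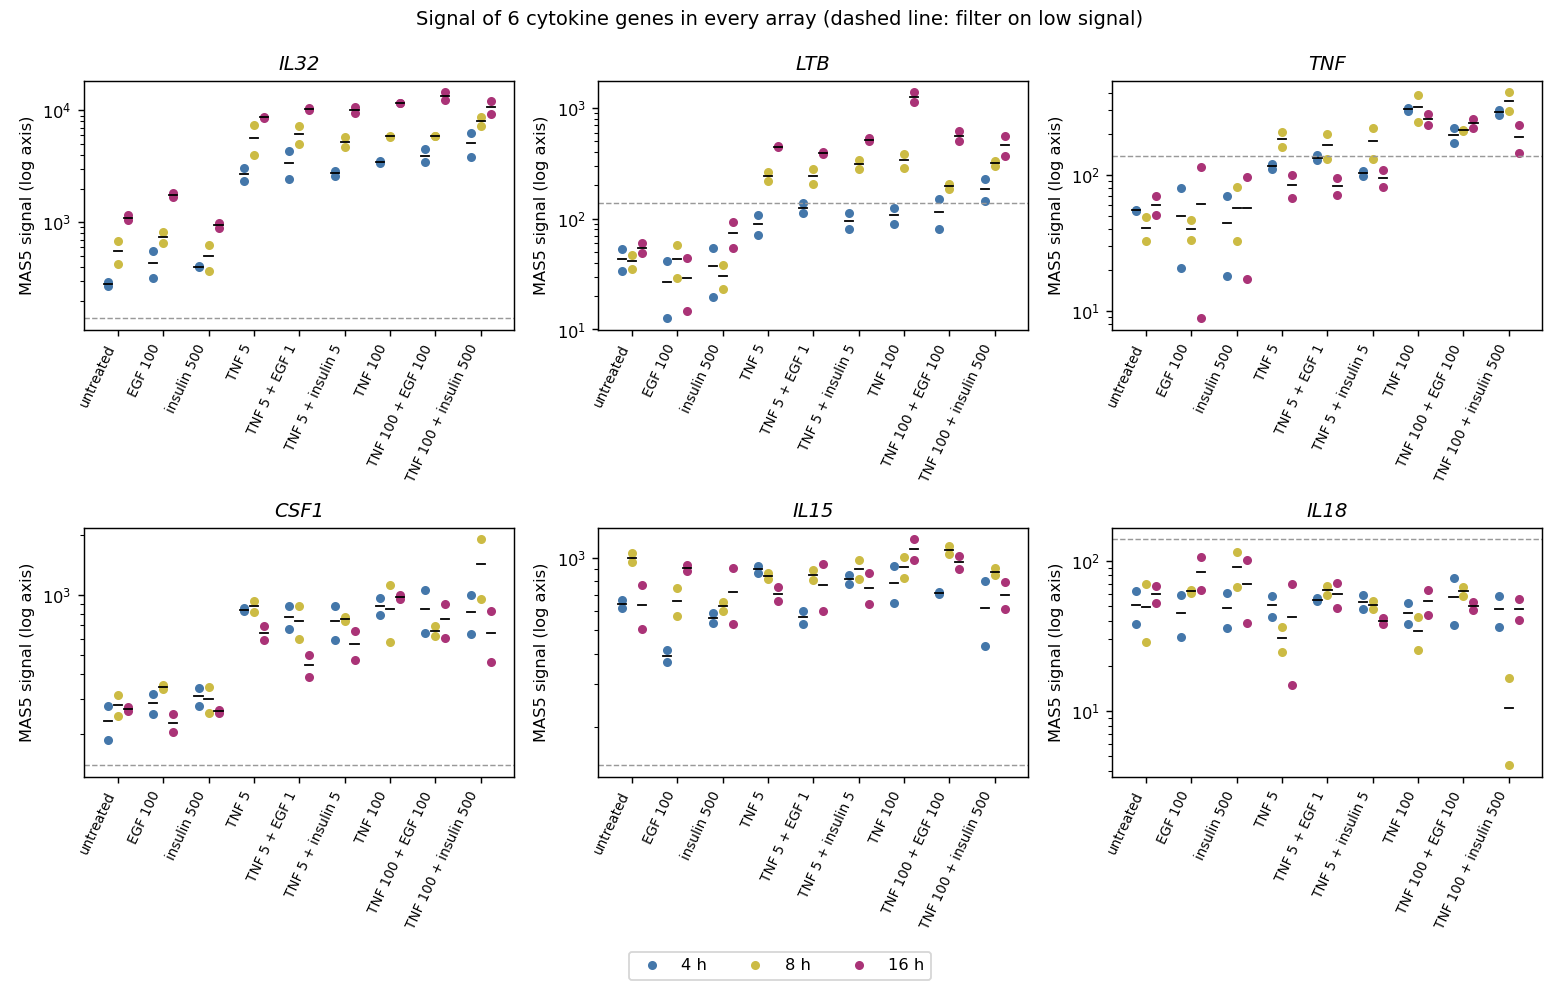
MAS5 signal (log axis) of the brightest probe set of each gene in all 54 arrays, by treatment (factor and ng/ml) and time. Points are arrays, dashes are means of 2 and the dashed line is the signal of 138.9 used as the filter. IL32 and CSF1 have every array with TNF above every array without it, and IL18 stays below the filter in the mean of every group.

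The arrays were of like brightness, with median signals between 110.9 and 168.0 and correlations between replicates of 0.945 to 0.977. A sign of RNA quality differed between sets of arrays with the same time and replicate number. The log2 ratio of ACTB signal at the 3′ over the 5′ end was highest in TNF 100 (1.19) and insulin 500 (0.98) at 8 h, replicate 2. TNF 100 with insulin at 16 h, replicate 1, had 0.63 and the lowest median signal, 110.9. By set, 4 had median ratios of −0.22 to 0.05. The 9 arrays of 8 h, replicate 2, had a median of 0.32, and the 9 of 16 h, replicate 2, had 0.31. Without the first of these sets the changes with TNF at 100 ng/ml were 3.35 for IL32, 2.67 for LTB, 2.07 for TNF and 1.84 for CSF1, and without the second, left out after its ratio was seen, they were 3.43, 2.67, 2.22 and 1.72, all still called. Of 11 colon epithelium markers 9 were kept, with EPCAM, KRT8, KRT18, KRT19, KRT20, CDH1 and LGALS4 bright in all groups, but the intestinal factors CDX1 and CDX2 were below the filter, with highest signals of 48.3 and 23.4. Among 6 leukocyte markers on the array, PTPRC (CD45) stayed at or below 57.7 and CD3D was below the filter. LYZ had a median of 6704, and ITGAM reached the filter in 13 of the 27 groups, CD3E in 10 and CD14 in 1. Of 6 fibroblast markers COL1A1 reached it in 27 groups, DCN in 26, THY1 in 18 and COL1A2 in 1. Of 3 endothelium markers PECAM1 reached it in 17. LYZ alone read 4380 to 9703 over all arrays and made up most of the summed leukocyte signal. The sum of the 6 leukocyte markers on the array was 5587 to 9332 in untreated arrays and 6244 to 8688 with TNF at 100 ng/ml. With TNF at that dose 1 of the 9 kept epithelium markers was called higher and 4 lower, 1 of the 4 leukocyte markers higher and 1 lower, and none of 4 fibroblast markers and 1 endothelium marker, and their part in the results below was not tested. In whole-culture RNA, more expressing cells and more RNA per cell cannot be told apart.

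With TNF at 100 ng/ml, transcripts of IL32, LTB, TNF and CSF1 were higher than in untreated cells, whereas IL15 did not pass the test and IL18 was below the filter. These were 4 of the 5 genes tested, where 6.69% of the kept probe sets were called higher and 16.3% in either direction. Each of the 4 was higher in 6 of 6 pairs of arrays with the same time and replicate number. At TNF 5 ng/ml IL32, LTB and CSF1 were called, 3 of 5, against a background of 4.26% called higher and 6.81% called in all. Both doses were compared with the same untreated arrays.

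IL32, the cytokine with the largest mean change of the 5, was already well expressed without TNF. Untreated arrays read 272 and 294 at 4 h, 685 and 423 at 8 h, and 1162 and 1042 at 16 h. With TNF at 100 ng/ml they read 3557 and 3404, then 5907 and 5833, then 11620.0 and 11742. With TNF at 5 ng/ml they read 3073 and 2360, then 7459 and 3981, then 8705 and 8612. No TNF array overlapped an untreated array at any time, and the level climbed with time in both. The change was 3.46 ± 0.16 at 100 ng/ml, a 10.99-fold difference (adjusted p = 9.88e-17), and 3.16 ± 0.16 at 5 ng/ml, 8.92-fold (adjusted p = 4.33e-15, limma). By time it was 3.57, 3.42 and 3.39 at the higher dose, so the TNF difference on the log2 scale was like in size at 4, 8 and 16 h. Over all treatments the 36 arrays with TNF ranged from 2360 to 14512 with a median of 5911, and the 18 without it from 272 to 1842 with a median of 641.

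LTB rose with TNF, by more at the later times. Untreated arrays read 52.8 and 33.7 at 4 h, 35.4 and 47.3 at 8 h, and 49.2 and 59.9 at 16 h. With TNF at 100 ng/ml they read 124 and 90.4, then 289 and 384, then 1124 and 1386. With TNF at 5 ng/ml they read 71.4 and 107, then 266 and 219, then 442 and 455. The untreated level did not move with time beyond its spread, and the TNF arrays lay above it at each time. The change was 2.68 ± 0.22 at 100 ng/ml (adjusted p = 2.03e-11) and 1.97 ± 0.22 at 5 ng/ml (adjusted p = 1.19e-07, limma). By time the difference at 100 ng/ml was 1.11, 2.69 and 4.24, the last an 18.9-fold difference, and at 5 ng/ml 0.87, 2.24 and 2.78. At 16 h the 2 arrays with TNF alone at 100 ng/ml were above all other arrays, the next treatment being TNF with EGF at 625 and 499.

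The growth of the TNF effect with time was tested directly, as the difference between TNF at 100 ng/ml and untreated cells at 8 and 16 h less that at 4 h. LTB was the one gene of the 5 called, with a 16 h minus 4 h difference of 3.13 ± 0.54 (adjusted p = 0.00131, limma F test), where 1.31% of the kept probe sets were called higher and 2.44% in all. Without the 9 arrays of 16 h, replicate 2, the difference was 3.09 and missed the threshold (adjusted p = 0.0549, limma), in a range of 1.02e-05 to 0.0549 over its alternatives. The same difference was −0.17 ± 0.40 for IL32, −0.33 ± 0.79 for TNF, −0.07 ± 0.45 for CSF1 and 0.51 ± 0.34 for IL15, none of them called. For TNF at 5 ng/ml the LTB difference between 16 h and 4 h was 1.92 and did not pass (adjusted p = 0.169), in a test added after the data were seen. In untreated cells, IL32 was the gene whose own level changed with time, by 0.90 at 8 h and 1.92 ± 0.28 at 16 h over 4 h (adjusted p = 3.57e-05), where 5.70% of the kept probe sets were called higher and 9.59% in all. Untreated LTB, TNF, CSF1 and IL15 were not called over time, with 16 h minus 4 h values of 0.28, 0.10, 0.22 and −0.04. Untreated IL15 was higher at 8 h than at 4 h by 0.63 ± 0.24, and by 0.61 in its other probe set (adjusted p over time = 0.107, limma, in the first). It was called with the replicate number as a block within each time (adjusted p = 0.0244, limma F test). That block compares times at the level of replicate 1, not the mean of both, so it tested another quantity. Without the 9 arrays of 16 h, replicate 2, IL15 was also called, with a 16 h minus 4 h value of −0.33.

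**Figure D2:**
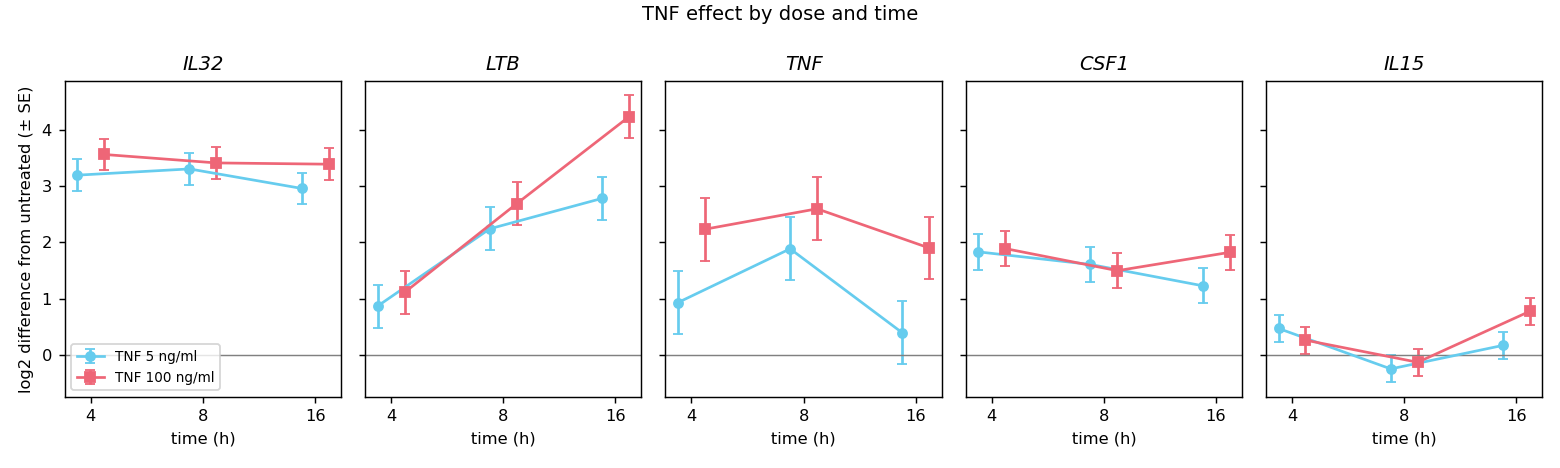
Log2 difference from untreated cells (± SE, n = 2 arrays per group) at 4, 8 and 16 h for TNF at 5 and 100 ng/ml, in the 5 genes tested. The LTB difference at 100 ng/ml goes from 1.11 to 4.24, while that of IL32 stays between 3.39 and 3.57.

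The cells' own TNF transcript was dim without added TNF. Untreated arrays read 54.6 and 55.5 at 4 h, 48.9 and 32.9 at 8 h, and 70.3 and 51.0 at 16 h. With TNF protein at 100 ng/ml they read 297 and 314, then 244 and 387, then 284 and 235. With TNF at 5 ng/ml they read 111 and 122, then 207 and 162, then 68.2 and 99.8. At the higher dose no array overlapped the untreated ones, whereas at the lower dose and 16 h, 1 of the 2 arrays fell within the untreated range. The change was 2.25 ± 0.32 at 100 ng/ml (4.74-fold, adjusted p = 2.88e-05), with 2.24, 2.60 and 1.90 at the 3 times. At 5 ng/ml it was 1.07 ± 0.32 and missed the threshold (adjusted p = 0.0787, limma), with 0.93, 1.89 and 0.39 at the 3 times. With a pseudocount 4 times as large it was called there (adjusted p = 0.0311), as it was with only the compared arrays in the fit (0.0455) and without the 9 arrays of 16 h, replicate 2 (0.0287), in a range of 0.0287 to 0.425 over all alternatives.

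CSF1, the macrophage growth factor, was higher from 4 h on and stayed so. Its brightest probe set, 209716_at, read 277 and 186 at 4 h, 313 and 247 at 8 h, and 272 and 261 at 16 h in untreated cells. TNF at 100 ng/ml gave 795 and 967, then 1124 and 579, then 953 and 1000.0. TNF at 5 ng/ml gave 824 and 859, then 933 and 816, then 595 and 694. Every TNF array lay above every untreated one. The change was 1.74 ± 0.18 at 100 ng/ml (3.34-fold, adjusted p = 6.19e-08) and 1.56 ± 0.18 at 5 ng/ml (adjusted p = 1.16e-06, limma). The other kept probe set, 210557_x_at, gave 1.22 ± 0.30 at 100 ng/ml (adjusted p = 0.0202) and 1.02 ± 0.30 at 5 ng/ml (adjusted p = 0.130), so the call at 5 ng/ml rests on the first. That probe set reached the filter in 12 of the 18 groups with TNF and in none of the 9 without, so it was tested only because TNF groups were bright and adds no support of its own. The 2 correlated at 0.89 over the 27 group means, and 207082_at and 211839_s_at stayed below the filter.

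IL15, the natural killer and T cell cytokine, was present in every array and moved little with TNF. Its probe set 205992_s_at read 668 and 618 at 4 h, 1042 and 958 at 8 h, and 509 and 768 at 16 h in untreated cells. With TNF at 100 ng/ml it read 647 and 924, then 1006 and 825, then 981 and 1189. The groups overlapped at 4 h and 8 h, and at 16 h both TNF arrays were above both untreated ones, by 0.78 ± 0.24. The change over the 3 times was 0.30 ± 0.14 (adjusted p = 0.0857, limma F test, 3 of 6 pairs). It was −0.05 in the probe set 217371_s_at, so the direction differed between probe sets. It was called when untreated replicate 2 of 16 h was left out (0.40, adjusted p = 0.0392) and with the replicate number as a block within each time (adjusted p = 0.0361), in a range of 0.0361 to 0.654 over its alternatives. At 5 ng/ml the change was 0.13 ± 0.14 (adjusted p = 0.567).

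IL18, often abundant in normal gut epithelium, was at the low end of the arrays under every treatment. Its signal ranged from 28.7 to 114 with a median of 62.2 in the 18 arrays without TNF and from 4.37 to 77.1 with a median of 48.4 in the 36 with it. The highest group mean, 90.3 with insulin at 8 h, was below the filter of 138.9. With no filter its change was −0.20 ± 0.26 with TNF at 100 ng/ml (adjusted p = 1.00, limma), so no difference was detectable at this signal. The lowest group was TNF with insulin at 8 h, 16.5 and 4.37, below the 10th percentile of all values in 1 of its 2 arrays.

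Between the TNF doses none of the 5 genes was called, where 1.27% of the kept probe sets were. This does not show that the doses act alike, since the 95% interval of the change from 5 to 100 ng/ml was 0.51 to 1.84 for TNF and 0.26 to 1.17 for LTB before adjustment. The TNF transcript was higher at 100 ng/ml in 6 of 6 pairs by 1.18 ± 0.32 (adjusted p = 0.208), and LTB in 5 of 6 by 0.71 ± 0.22 (adjusted p = 0.145, limma), with 1.45 at 16 h. Both were called with the larger pseudocount (0.0327 and 0.00878), and TNF also with only the compared arrays (0.0435), in ranges of 0.0327 to 0.416 for TNF and 0.00878 to 0.935 for LTB. IL32 differed by 0.30 with an interval of −0.03 to 0.64, CSF1 by 0.18 with an interval of −0.19 to 0.55, and IL15 by 0.17 with an interval of −0.11 to 0.46.

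Arrays were also compared by presence of TNF at either dose, in the brightest probe set of each gene. All 36 TNF arrays were above all 18 others for IL32 and CSF1, and for 0.492% of the kept probe sets. At 4 h, with 12 arrays against 6, this held for IL32, LTB, TNF and CSF1, and for 1.60% of probe sets. At 8 h it held for the same 4 genes and for 2.28% of probe sets. At 16 h it held for IL32, LTB and CSF1, and for 3.93%, while the TNF transcript overlapped. There its arrays with TNF ranged from 68.2 to 284 and those without from 8.86 to 114. IL15 overlapped at every time. CSF1 overlapped over all times and at 4, 8 and 16 h in its other kept probe set, 210557_x_at. Over all times the lowest array with TNF read 65.8 in that probe set and the highest without it 118. LTB and TNF reached the filter only in groups with TNF, so setting them against these shares is no support for an effect.

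EGF alone called none of the 5 genes, where 0.596% of the kept probe sets were called. IL32 was higher with EGF in 6 of 6 pairs, at 316 and 551, 828 and 651, and 1699 and 1842 at the 3 times, by 0.55 ± 0.16, with an unadjusted 95% interval of 0.22 to 0.89, but its adjusted p was 0.575 (limma). At 4 h and at 16 h both EGF arrays lay above both untreated ones. IL15 read 372 and 413 with EGF at 4 h, 751 and 574 at 8 h, and 880 and 935 at 16 h. These arrays were below both untreated arrays at 4 h and 8 h, by 0.70 and 0.60, and above them at 16 h, by 0.53 (adjusted p = 0.139, limma F test). That result was called with the replicate number as a block within each time (adjusted p = 0.0399), in a range of 0.0399 to 1.00 over its alternatives. In the other kept IL15 probe set, 217371_s_at, the differences were −0.12, −0.47 and 0.14 at 4, 8 and 16 h. Its arrays with EGF overlapped the untreated ones at 4 h and at 16 h. The change was −0.44 ± 0.22 for LTB, −0.26 ± 0.32 for TNF and 0.12 ± 0.18 for CSF1, none of which passed.

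Insulin alone called none of the 5 either, where 0.231% of the kept probe sets were called. The changes were 0.03 ± 0.16 for IL32, −0.08 ± 0.22 for LTB, −0.15 ± 0.32 for TNF, 0.15 ± 0.18 for CSF1 and −0.23 ± 0.14 for IL15. Their 95% intervals all held 0, the widest being that of TNF, −0.82 to 0.51. In the other IL15 probe set, 217371_s_at, the change was −0.43 with an unadjusted interval of −0.73 to −0.12 that did not hold 0, lower in 5 of 6 pairs, and it was not called (adjusted p = 0.730, limma). At 8 h IL15 read 657 and 603 with insulin against 1042 and 958 without.

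EGF or insulin added to TNF at 100 ng/ml, against the same TNF arrays, again called none of the 5. The background was 0.224% for EGF and 0.499% for insulin. LTB was the gene with the widest differences. At 16 h it read 1124 and 1386 with TNF alone, 625 and 499 with EGF added and 557 and 371 with insulin added. No array with an added factor reached the TNF arrays there, and the differences were −1.14 ± 0.38 with EGF and −1.43 ± 0.38 with insulin. At 4 h, LTB with insulin added was instead higher, 229 and 143 against 124 and 90.4, by 0.71. Over the 3 times, the change was −0.60 ± 0.22 with EGF (adjusted p = 0.794) and −0.27 ± 0.22 with insulin (adjusted p = 0.174, limma F test). The insulin result was called with the larger pseudocount (adjusted p = 0.0163), in a range of 0.0163 to 1.00. CSF1 with insulin added read 634 and 999 at 4 h, 1898 and 952 at 8 h, and 458 and 826 at 16 h, of which 1898 was the highest CSF1 signal of all arrays (adjusted p = 0.534). IL32 with insulin added differed by 0.27 ± 0.16, TNF by −0.12 ± 0.32 and IL15 by −0.36 ± 0.14, and with EGF added by 0.13 ± 0.16, −0.40 ± 0.32 and −0.02 ± 0.14.

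**Figure D3:**
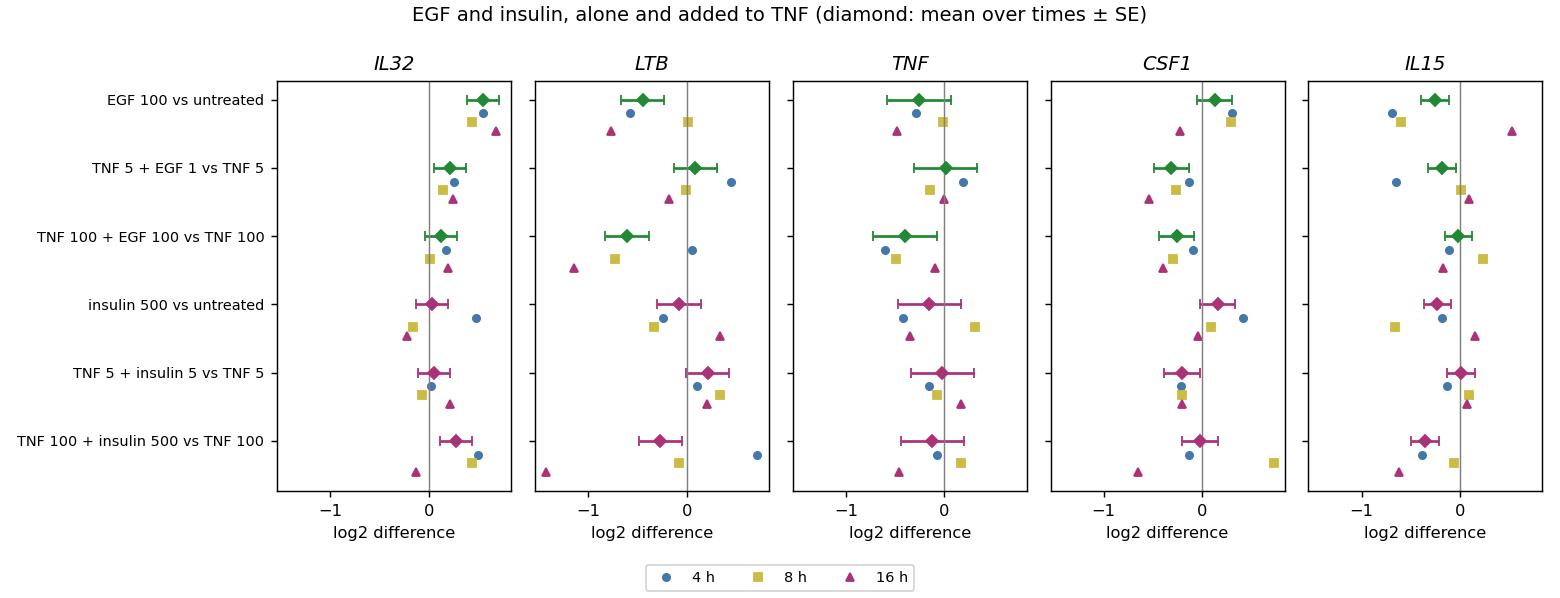
Log2 difference on adding EGF (green) or insulin (purple) to untreated cells or to TNF, for the 5 genes tested. Diamonds are means over the 3 times ± SE (6 arrays per treatment) and small symbols are single times. No gene was called in any row, and LTB at 16 h on TNF 100 is farthest from 0, at −1.14 and −1.43.

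Whether EGF or insulin changed the TNF effect was tested as an interaction, and none of the 5 genes was called. The background was 0.0298% for EGF and 0.00745% for insulin. For LTB the interaction with insulin was 0.95, 0.26 and −1.77 at 4, 8 and 16 h (adjusted p = 0.567), and with EGF 0.64, −0.74 and −0.37 (adjusted p = 1.00, limma F test). For IL32 the interaction with EGF was −0.43 ± 0.23 and with insulin 0.24 ± 0.23. At the lower doses, EGF at 1 ng/ml or insulin at 5 ng/ml added to TNF at 5 ng/ml called no member and 0% of the kept probe sets in limma, although 560 and 279 probe sets had an unadjusted p under 0.05. The members' changes there lay between −0.31 (CSF1 with EGF) and 0.22 (IL32 with EGF) in the brightest probe sets. In the other kept CSF1 probe set, 210557_x_at, the change with insulin was −0.40 ± 0.30. LTB at 16 h read 442 and 455 with TNF at 5 ng/ml, 385 and 402 with EGF added and 533 and 503 with insulin added.

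**Figure D4:**
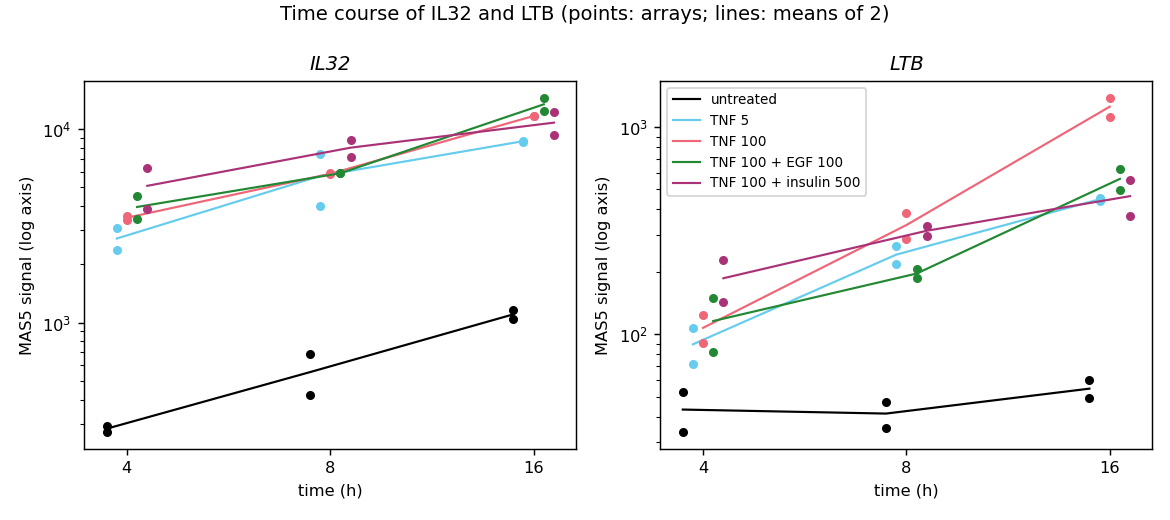
MAS5 signal (log axis) of IL32 and LTB at 4, 8 and 16 h in untreated cells and 4 treatments with TNF. Points are arrays and lines join means of 2. Untreated IL32 climbs from 272 to 294 at 4 h to 1042 to 1162 at 16 h, untreated LTB stays at or below 59.9, and at 16 h the LTB arrays with TNF alone at 100 ng/ml (1124 and 1386) lie above the rest.

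The receptors and partners of the 6 cytokines were described from a list of 21 genes, of which 19 had a probe set of their own and 14 were kept. At TNF 100 ng/ml, 6 of the 14 were called higher, none lower, and 8 did not pass, where 6.69% of all kept probe sets were called higher and 16.3% in all. The median change was 0.27, against −0.08 over all kept probe sets. Of the 14, 2 reached the filter only in groups with TNF, and 1 of the 6 called higher, TNFRSF1B, was among them, so these counts are no support for an effect on the list. The common gamma chain IL2RG, which IL15 signals through, had the largest change, 1.69 ± 0.17 (adjusted p = 5.67e-09). It read 162 and 123 at 4 h, 183 and 279 at 8 h and 200 and 397 at 16 h in untreated cells, and 361 and 285, 474 and 705, and 2031 and 1663 with TNF. TNFRSF1B, the other TNF receptor, changed by 1.37 ± 0.26 (adjusted p = 0.000947, limma), but reached the filter in 10 of the 18 groups with TNF and in none without, so it was tested only because TNF groups were bright. MYD88, the adaptor of the IL18 receptor, changed by 0.64 ± 0.06 and the inflammatory caspase CASP4 by 0.54 ± 0.14 (adjusted p = 4.07e-09 and 0.0312, limma). IL15RA, which presents IL15, and ADAM17, the protease that sheds TNF, were the other 2 called, at 0.43 ± 0.13 and 0.43 ± 0.12. LTBR (0.07 ± 0.15), TNFRSF1A (0.28 ± 0.16) and CASP1 (−0.10 ± 0.11) were not called. LTA, the partner of LTB, was below the filter, as were CSF1R, IL18R1, IL18RAP and PRTN3. At TNF 5 ng/ml 4 of the 14 were called higher, IL2RG, TNFRSF1B, MYD88 and ADAM17, where 4.26% of all kept probe sets were called higher and 6.81% in all.

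Other cytokines were taken from a list of 43 genes, of which 37 had a probe set of their own and 23 were kept. At TNF 100 ng/ml 7 were called higher, 1 lower (GDF15, −0.67 ± 0.13) and 15 were not called, where 6.69% of all kept probe sets were called higher and 16.3% in all. Of the 23, 6 reached the filter only in groups with TNF, and 1 of the 7 called higher, IFNB1, was among them. The median change of the 23 was 0.10. The death ligand TNFSF10 (TRAIL) changed by 1.91 ± 0.10, the interleukin-1 antagonist IL1RN by 1.57 ± 0.09 and the interleukin-23 subunit IL23A by 1.09 ± 0.18. Interferon-beta, IFNB1, changed by 2.28 ± 0.26, nearly all of it at 16 h, where TNF arrays read 1244 and 889 and untreated ones 6.98 and 6.19. It reached the filter in 5 of the 18 groups with TNF and in none without, so it too was tested only because TNF groups were bright. VEGFA, LIF and PDGFB were the other 3 called higher. At TNF 5 ng/ml 6 of the 23 were called higher and none lower. The background was 4.26% of all kept probe sets called higher and 6.81% in all. GDF15 was among these 6, so its called direction differed between the doses. With EGF alone IL1RN was the 1 gene of the 23 called, at 0.59 ± 0.09 (adjusted p = 0.00141, limma). The background there was 0.596% of all kept probe sets.

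The pattern over the 27 group means was compared between genes by Pearson's r, as a description, since the points share times and, for mixtures, factors. IL32 and LTB correlated at 0.92 and TNF and CSF1 at 0.91, while IL32 with TNF gave 0.77 and LTB with CSF1 0.72. IL15 correlated with the other 4 tested genes at 0.42 to 0.52. Among all genes with a kept probe set of their own, those closest to IL32 were RELB, a kappaB-binding factor (r = 0.98), RARRES1 (0.97) and the chemokine CXCL10 (0.97). Closest to LTB were the complement genes C3 (0.97) and CFB (0.96), with RARRES1 (0.96) between them. Closest to TNF were PLPP3 (0.96), TNFAIP3, an inhibitor of TNF signalling (0.95), and the protease inhibitor PI3 (0.95). Closest to CSF1 were the adhesion molecule ICAM1 (0.95), the chemokine CXCL8 (0.95) and TNIP1 (0.94). For IL15 they were C5orf15 (0.86), UBE2B (0.76) and IL6ST (0.74), so no gene followed IL15 as closely as the first 3 followed each of the others.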

How the data were processed

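RNA of 54 cultures was measured on Affymetrix arrays. The deposited values are linear MAS5 signals, an intensity on a common scale, made by the authors with MAS5 per the submitters' processing notes. All arrays had the same trimmed mean, 500.2 with 2% cut from either tail, and were not scaled again. The table held 22283 probe sets, 68 of them controls, which were left out. The platform annotation named 1 gene for 19065 probe sets, more than 1 for 1043 and no gene for 2107.

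Log2 of signal plus 12.5, the 10th percentile of all values, was fitted in limma 3.58.1 (R 4.3.3) with 27 group means, 27 residual degrees of freedom and an intensity trend. Probe sets were kept where 1 group mean reached log2 7.24. Each of 13 comparisons used the moderated F test over 4, 8 and 16 h, or over 8 h and 16 h against 4 h for changes over time, with Benjamini-Hochberg adjustment at 0.05. The direction called is that of the mean over times, or of 16 h minus 4 h. The fit was tested on simulated data whose residuals were independent between arrays. These data lack the ties between same-numbered arrays described next, so that test does not cover them.

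Replicate numbers tied arrays at every time, most closely within 8 h. There residuals of same-numbered arrays correlated above 0.1 in 36 of 36 pairs of groups (median 0.43). At 4 h this held in 27 of 36 (median 0.20) and at 16 h in 31 of 36 (median 0.21). No block was used in the fits reported.

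Genes named from the lists were the up to 4 called members with the largest change with TNF at 100 ng/ml; the remaining called ones and those not called that bear on a member were chosen after their values were seen. The 3 nearest genes were named by r. The members, lists and tests were chosen with earlier results of these data known. Promoters are those of RefSeq on GRCh38.p14; those of CSF1, IL15 and IL18 were not analysed here. Alternatives were other pseudocounts, filter, scalings, blocks, probe sets, arrays in the fit and leaving out arrays.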

Additional observations from a re-analysis of the deposited data

Results flagged for a closer look

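The TNF effect on LTB differed between times by test: the log2 difference between TNF at 100 ng/ml and untreated cells was 3.13 larger at 16 h than at 4 h (adjusted p = 0.00131, limma F test). Without the 9 arrays of 16 h, replicate 2, it was 3.09 larger and missed the threshold (adjusted p = 0.0549).

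In 6 further cases both arrays of 1 treatment lay above both of the other at 1 time and below them at another. All 6 cases are those of the brightest probe set of the gene. The difference between times was tested by limma's F test in each, added after the cases were seen, and passed in none. For IL15 with EGF alone the values were −0.70 at 4 h, −0.60 at 8 h and 0.53 at 16 h (adjusted p = 0.650). For LTB with insulin added to TNF at 100 ng/ml they were 0.71 at 4 h and −1.43 at 16 h (adjusted p = 0.210). For IL15 with TNF at 5 ng/ml they were 0.47 at 4 h and −0.25 at 8 h (adjusted p = 0.750). For CSF1 with EGF alone they were 0.30 at 8 h and −0.23 at 16 h, for IL32 with insulin alone 0.48 at 4 h and −0.22 at 16 h, and for LTB with EGF at 1 ng/ml added to TNF at 5 ng/ml 0.45 at 4 h and −0.18 at 16 h, each with an adjusted p of 1.00. In the other kept CSF1 probe set, 210557_x_at, EGF alone gave −0.35 at 8 h and −0.10 at 16 h. The other IL15 probe set, 217371_s_at, gave −0.12, −0.47 and 0.14 with EGF alone at 4, 8 and 16 h. With TNF at 5 ng/ml it gave 0.13 at 4 h and −0.27 at 8 h.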

How the results depend on the processing

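Of 65 results of the 5 genes in 13 comparisons, 9 were called and 7 of these kept direction and call under every alternative tried. The exceptions were CSF1 with TNF at 5 ng/ml in its other probe set (1.02, adjusted p = 0.130, limma) and the growth of the TNF effect on LTB with time without the 9 arrays of 16 h, replicate 2 (3.09, adjusted p = 0.0549), an alternative chosen after seeing the data. Of the 56 not called, 49 were never called and 7 were called under some alternative. The direction turned in 25 of the 56 under some alternative. Among those 7, IL15 with TNF at 100 ng/ml turned to −0.047 in its other probe set, and IL15 over time in untreated cells to 0.12 in that probe set, to 0.25 without untreated replicate 1 of 16 h and to 0.02 without untreated replicate 1 of 4 h; leaving out single arrays gave −0.33 to 0.25. With the replicate block within each time the last was called, at −0.07 (adjusted p = 0.0244, limma F test). That block compares times at the level of replicate 1, not the mean of both, so it tested another quantity. Without the 9 arrays of 16 h, replicate 2, the result was also called, at −0.33. The cause was not tested.

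Counts over all kept probe sets moved more. With the replicate block within each time they were 3347 for TNF at 100 ng/ml (2194 without it), 1705 for TNF at 5 ng/ml (914), 503 between doses (170), 207 for EGF (80), 160 for insulin (31), 72 for EGF on TNF 100 (30), 378 for insulin on TNF 100 (67), 1 for EGF on TNF 5 (0), 13 and 91 for the interactions with EGF (4) and insulin (1), 736 for the TNF effect over time (327) and 2176 for time in untreated cells (1287). The numbers tied arrays most closely within 8 h. With the block there, counts were 286 between doses, 131 for EGF, 87 for insulin and 164 for insulin on TNF 100. They were also 1 for EGF on TNF 5 and 19 for the insulin interaction. With the block over all times they were 281, 136, 74, 126, 1 and 8 in the same order, and 7 for the EGF interaction. The block within each time compares untreated times at the level of replicate 1, so its 2176 counts another quantity than the 1287. These blocks changed no call of the 5 genes other than those named. With only the compared arrays in the fit, which leaves fewer residual degrees of freedom, counts were 1160, 490, 49, 13, 0, 2 and 2 in the first 7 comparisons in the order above, 0 for the insulin interaction, 103 over time and 360 for untreated time. Median centring over all 22215 probe sets gave 1454 for TNF at 100 ng/ml, 87 between doses, 7 for insulin, 14 and 22 for EGF and insulin on TNF 100, 0 and 0 for the interactions, 167 over time and 807 for untreated time. A pseudocount of 1 gave 1 for EGF on TNF 5 and 3 for the insulin interaction, the larger pseudocount 2 for the EGF interaction, and quantile normalization 0 for the insulin interaction. Without the 9 arrays of 8 h, replicate 2, EGF on TNF 100 gave 16 and the insulin interaction 5, while untreated time gave 1262. Without the 9 arrays of 16 h, replicate 2, which leaves fewer residual degrees of freedom, counts were 1321, 578, 64, 45, 10, 7 and 22 in the first 7 comparisons in the order above, 0 for both interactions, 114 over time and 553 for untreated time.

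Leaving out 1 array at a time gave 1693 to 2247 for TNF at 100 ng/ml, 689 to 940 for TNF at 5 ng/ml, 104 to 208 between doses, 56 to 78 for EGF, 11 to 54 for insulin, 7 to 51 and 29 to 112 for EGF and insulin on TNF 100, 0 to 5 and 0 to 3 on TNF 5, 2 to 9 and 0 to 10 for the interactions, 189 to 391 over time and 690 to 1225 for untreated time; the lone array left in a group was assumed to vary like the others. Over these fits the called changes stayed between 3.35 and 3.57 for IL32, 2.60 and 2.76 for LTB, 2.14 and 2.35 for TNF and 1.58 and 1.90 for CSF1 with TNF at 100 ng/ml. No scaling moved the median change of all probe sets by more than 0.1. The share of calls that were higher went from 40.9% to 58.6% with median centring for TNF at 100 ng/ml, from 49.4% to 61.8% with quantile normalization and 71.3% with centring between doses, from 35.5% to 14.3% for insulin and from 60.0% to 78.6% for EGF on TNF 100 with centring.

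Replicates were 2 per group, all groups were primed with interferon-gamma, and LTB and TNF without TNF, and IL18 throughout, were too dim for small changes to be seen.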
